A study of Mus musculus with 45 samples.

Results

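Mesothelium is the single layer of flat cells that covers the outer surface of the uterine horn, where it forms the serosa. It secretes a lubricating film that lets the organs of the abdomen slide past each other, and it carries a set of surface glycoproteins, membrane plaque proteins and transcription factors by which it is recognised. The 6 genes followed here are commonly used to mark it: Msln, Muc16, Upk3b, Upk1b, Lrrn4 and Wt1. They were taken by symbol from the deposited table of 24422 genes. A row was found for 5 of the 6, and Muc16, the mucin that binds mesothelin, had none under its symbol or the older names tried, so its level was not analysed here.

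The study compared the uteri of wildtype (WT) and Plag1 knockout (Plag1KO, here KO) females to ask whether the maternal tract differed between the genotypes. All mice were sexually mature CD-1 females, an outbred stock. In the knockout the reading frame of Plag1, a zinc finger transcription factor, was replaced by lacZ. Mice of both genotypes received pregnant mare serum gonadotropin and then human chorionic gonadotropin, 5 IU each, and the uteri were taken on the day after the second injection, so the controls were superovulated as well. From each mouse 3 samples were made: a piece of intact horn (uterus), the mucosa scraped off after the horn was opened (endometrium), and the wall left after scraping (myometrium). Each of the 6 tissue and genotype groups held 7 mice, and the 45 libraries were reduced to 42 samples by summing the repeat libraries of WT mouse 12 and KO mouse 13. The libraries were STRT libraries, which tag the 5′ end of each captured molecule with a molecular identifier, made from 10 ng RNA.

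The libraries held between 256298 and 1222627 counts on genes. Levels are given as CPM, which scales a count to the size and composition of its library, and 3 counts, taken as the floor of a sample, corresponded to 1.24 to 9.82 CPM. Levels near the floor carry a large counting error, and the floors and the exact intervals of count ratios cover counting error only. Intervals of log2 fold changes come from the standard error of the fit, which also takes in the spread between mice. Plag1 itself gave at most 1 count in any sample, in 2 of 21 WT and 5 of 21 KO samples, so it could not check the genotype labels. The scraped endometrium of WT mouse 8 stood apart: Ovgp1, an oviduct glycoprotein, was at 5051 CPM there and at 7.49 to 103 CPM in the other WT endometrium samples, and Foxj1, a factor of ciliated cells, was at 60.0 CPM. The endometrium of KO mouse 13 stood apart as well, with smooth muscle genes summing to 13890.2 CPM (high in each of its 3 libraries) against 235 to 1241 CPM in the other KO mice, and that of WT mouse 3 was highest among WT mice (13894 CPM). Tissue comparisons of the markers are therefore also given without these mice.

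None of the 5 measured genes overlaps another annotated gene in build NCBIM37 (mm9). Msln, which encodes the membrane-anchored glycoprotein mesothelin, is on chr17:25885559-25891272 (minus strand). Upk3b, a single-pass uroplakin, is on chr5:136514366-136521173 (plus strand), and Upk1b, a tetraspanin uroplakin, is on chr16:38773297-38800316 (minus strand). Lrrn4, a leucine-rich repeat membrane protein, is on chr2:132694041-132706627 (minus strand), and Wt1, a zinc finger transcription factor, is on the same chromosome at chr2:104966686-105013773 (plus strand). Muc16 is annotated on chr9:18299899-18317329 (minus strand).

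Upstream sequence is shown for Upk3b and Lrrn4, the marker pair with the highest correlation between mice in the intact uterus (r = 0.73). The pair did not pass in a permutation test of rho (adjusted p = 0.0598), nor for r without the 2 samples farthest from the median of Upk3b. The 250 bases before each annotated start come from RefSeq (GRCm38.p6), and capitals mark the letters GGAATG, the core bound by TEAD factors, read on either strand. The Upk3b window is chr5:136038246-136038495 (plus strand) and the Lrrn4 window is chr2:132880863-132881112 (minus strand).
Upk3b: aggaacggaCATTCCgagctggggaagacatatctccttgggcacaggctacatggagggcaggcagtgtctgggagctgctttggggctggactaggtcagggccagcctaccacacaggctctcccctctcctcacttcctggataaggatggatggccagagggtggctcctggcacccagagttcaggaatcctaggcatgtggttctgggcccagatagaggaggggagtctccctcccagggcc
Lrrn4: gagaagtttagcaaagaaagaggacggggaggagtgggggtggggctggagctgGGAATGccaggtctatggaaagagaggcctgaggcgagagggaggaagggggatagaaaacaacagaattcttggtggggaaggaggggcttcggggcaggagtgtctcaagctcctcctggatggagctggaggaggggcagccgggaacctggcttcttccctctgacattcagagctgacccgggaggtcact
The match lies at bases -241 to -236 in Upk3b, on the minus strand of the gene, and at -196 to -191 in Lrrn4, on its plus strand. Of 32851 promoters of the same length, 12.6% hold these letters. The letters GCGNGGGCG, bound by EGR factors and WT1, were in neither window and are in 4.7% of promoters. A loose PLAG1 core, GNGGCNNNNNNGGG with room for up to 2 further bases in the gap, matched Lrrn4 at -209 to -195, where it overlaps the TEAD letters, and is in 27.1% of promoters. These are matches of letters only. The window of Muc16, chr9:18674604-18674853 (minus strand), was searched in the same way and held none of these letters. The table of promoters held no entry for Msln, Upk1b or Wt1.

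Msln, Upk3b, Upk1b and Lrrn4 shared a pattern: each had its highest mean in the intact uterus of both genotypes and a lower mean in both separated layers, by a margin that passed the test in some comparisons and not in others. Their means were low in the mucosa, which carries no serosa, and also in the muscle wall, whose outer surface is the serosa. Wt1 did not follow this pattern, and its levels overlapped in the 3 tissues.

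**Figure D1:**
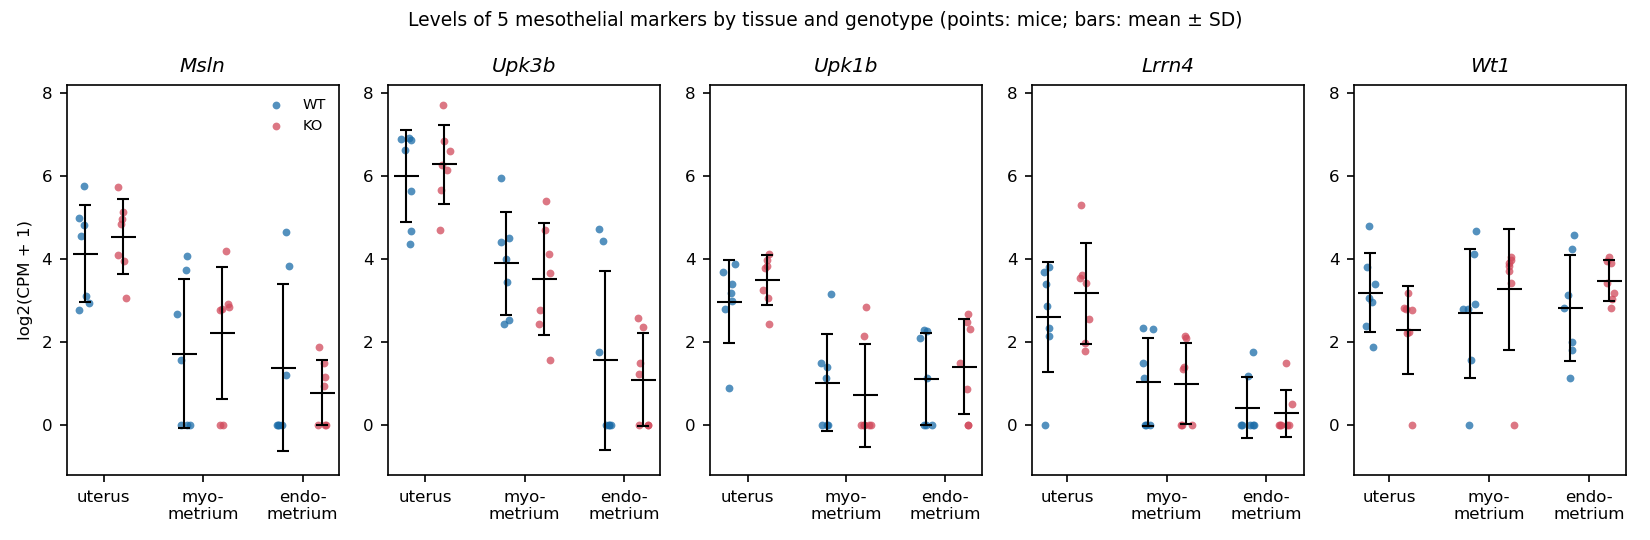
Level of each measured marker, log2(CPM + 1), by tissue, with 1 point per mouse (blue WT, red KO) and the mean ± SD over 7 mice. The uterus groups of Msln, Upk3b, Upk1b and Lrrn4 lie above the corresponding groups of both layers, with overlap between single mice, while the 6 groups of Wt1 overlap.

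Mesothelin is a surface glycoprotein of mesothelial cells. Msln ranged from 5.81 to 52.9 CPM with a median of 22.3 in the uterus of WT mice, and from 7.29 to 52.4 with a median of 27.6 in that of KO mice. In myometrium it ranged from 0 to 15.8 CPM (median 1.97) in WT and from 0 to 17.2 (median 5.93) in KO. In endometrium it was at 0 in 4 of 7 WT mice, reached 13.3 CPM in mouse 10 and 24.3 in mouse 8, and stayed between 0 and 2.67 CPM in KO. All uterus samples held Msln molecules, whereas 5 of 14 myometrium and 7 of 14 endometrium samples held none.

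Upk3b and Upk1b belong to the uroplakins, first known from the plaques of bladder epithelium. Upk3b ranged from 19.6 to 120.4 CPM (median 96.8) in WT uterus and from 24.9 to 209.6 (median 76.3) in KO uterus. It was present in all 14 myometrium samples, at 4.37 to 61.1 CPM (median 14.9) in WT and 1.98 to 41.3 (median 11.6) in KO. In endometrium it was at 0 in 4 of 7 WT and 3 of 7 KO mice, with highest values of 25.5 CPM, in mouse 8, and 4.97 CPM, in mouse 13. The medians of Upk3b thus ran in the order uterus, myometrium, endometrium in both genotypes.

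Upk1b was lower throughout its range, which ran from 0.853 to 13.7 CPM (median 8.10) in WT uterus and from 4.40 to 16.3 (median 12.9) in KO uterus. Its highest value was 7.88 CPM in myometrium and 5.43 CPM in endometrium, and 8 of 14 myometrium and 5 of 14 endometrium samples held none. The order of its medians in the separated layers ran opposite to that of Upk3b, at 0 CPM over the 14 myometrium samples and 1.51 over the 14 endometrium samples, a difference within the spread of the mice.

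Lrrn4 ranged from 0 to 12.9 CPM (median 6.34) in WT uterus and from 2.43 to 38.6 (median 9.68) in KO uterus. No separated layer held more than 2 of its molecules in any mouse, with 12 counts over the 14 myometrium samples and 5 over the 14 endometrium samples. Its highest uterus value, in KO mouse 2, came with the highest Upk3b value of the series.

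Wt1 drives development of the mesothelium and gonads and is also made by stromal and smooth muscle cells of the uterus. It ranged from 2.70 to 26.7 CPM (median 7.39) in WT uterus, from 0 to 24.5 (median 5.95) in WT myometrium and from 1.21 to 23.0 (median 6.01) in WT endometrium. In KO mice the medians were 5.86, 13.2 and 9.69 CPM in the same order. Wt1 was detected in all 14 endometrium samples, where Lrrn4 was detected in 4.

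The first comparison set the muscle wall against the intact uterus, and asked which transcripts were retained when the mucosa was scraped away. In WT mice 3 of 5 markers were lower in myometrium (background 6.63% of 13104 genes tested). Upk3b was 3.98-fold lower, with a log2 fold change of -1.99 ± 0.47 (SE; adjusted p = 0.00777 by the edgeR quasi-likelihood test). Msln was 4.42-fold lower (-2.14 ± 0.65, adjusted p = 0.0321 by edgeR) and Upk1b 4.24-fold lower (-2.09 ± 0.65, adjusted p = 0.0370 by edgeR). Lrrn4 had a like value without passing (-2.06 ± 0.70, adjusted p = 0.0541 by edgeR), and Wt1 had a log2 fold change of -0.18 ± 0.56. In bulk tissue a smaller share of mesothelial cells and less of these RNAs per cell cannot be told apart.

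Leaving out single mice moved some of these WT calls across the threshold while all log2 fold changes of the 3 genes stayed under 0. Without mouse 8 the differences were larger and 4 markers passed: Upk1b was 7.45-fold lower, Msln 7.18-fold, Upk3b 6.49-fold and Lrrn4 5.87-fold (edgeR adjusted p = 0.0180, 0.0156, 0.00116 and 0.0236). Without mouse 1, 3, 10 or 12 only Upk3b passed: the edgeR adjusted p of Msln was then 0.0949, 0.0809, 0.137 and 0.0931, and that of Upk1b was 0.104, 0.0944, 0.103 and 0.0997. Their log2 fold changes were then -1.81, -1.94, -1.47 and -2.12 for Msln and -1.88, -1.87, -1.87 and -2.08 for Upk1b. Without mouse 5, Upk1b also missed the threshold (0.0534).

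In KO mice 4 of 5 markers were lower in myometrium than in uterus (background 8.04% of 12970 genes tested). The fold differences were 8.03 for Lrrn4 (-3.01 ± 0.73 log2, edgeR adjusted p = 0.00630), 6.41 for Upk1b (-2.68 ± 0.66, edgeR adjusted p = 0.00675), 5.98 for Upk3b (-2.58 ± 0.45, edgeR adjusted p = 0.000320) and 4.37 for Msln (-2.13 ± 0.53, edgeR adjusted p = 0.00795). Wt1 lay on the other side, at 1.22 ± 0.48 in myometrium over uterus, without passing (edgeR adjusted p = 0.0885). It passed with DESeq2 (adjusted p = 0.0410) and without KO mouse 9 (edgeR adjusted p = 0.0257), whose myometrium held no Wt1 molecule. That library had 309987 counts, the fewest of the myometrium libraries, and its floor was 9.82 CPM. Lrrn4 missed the threshold without KO mouse 2 (edgeR adjusted p = 0.0555), and all 4 genes passed without KO mouse 13.

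The second comparison set the scraped mucosa against the intact uterus. Few genes differed between these tissues, yet 2 of 5 markers were lower in WT endometrium (background 1.05% of 13091 genes tested). Upk3b was 9.45-fold lower (-3.24 ± 0.65 log2, edgeR adjusted p = 0.0126). Lrrn4 held 48 counts over the WT uterus samples and 3 over the WT endometrium samples, a ratio of 10.8 per unit of depth (95% exact interval 3.47 to 54.0), and passed (edgeR adjusted p = 0.0467). Msln (-1.72 ± 0.71, edgeR adjusted p = 0.234) and Upk1b (-1.94 ± 0.63, edgeR adjusted p = 0.128) did not pass. With the mouse as a block, Msln passed (-2.27, edgeR adjusted p = 0.00783) and the count was 3.

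Leaving out mice moved these WT calls too. Without mouse 1 neither Upk3b (edgeR adjusted p = 0.0549) nor Lrrn4 (0.115) passed. Lrrn4 also missed the threshold without mouse 3, 5, 7, 10 or 12 (edgeR adjusted p = 0.116, 0.137, 0.0959, 0.0688 and 0.0868), at log2 fold changes between -3.83 and -2.85. Without mouse 8 the same 2 genes passed: Upk3b was then 17.7-fold lower (-4.15 ± 0.69 log2, edgeR adjusted p = 0.00773), Lrrn4 had a log2 fold change of -3.59 (edgeR adjusted p = 0.0321) and Msln one of -2.94 (edgeR adjusted p = 0.0564). Without mouse 3 the value of Upk3b was -2.91 (edgeR adjusted p = 0.0214).

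In KO mice 3 of 5 markers were lower in endometrium than in uterus (background 0.934% of 12961 genes tested). Upk3b was 38.5-fold lower (-5.27 ± 0.55 log2, edgeR adjusted p = 2.75e-05) and Msln 22.2-fold lower (-4.47 ± 0.57, edgeR adjusted p = 0.000392). Lrrn4 held 65 counts over the KO uterus samples and 2 over the KO endometrium samples, a ratio of 44.2 (95% exact interval 11.8 to 373), and passed (edgeR adjusted p = 0.00651; 0.0549 without KO mouse 2). KO mouse 2 held 39 of the 65 uterus counts, and the exact interval does not cover the spread between mice. The values of all 7 uterus samples lay above those of all 7 endometrium samples for these 3 genes, as they did for 0.425% of 14822 genes. For Lrrn4 this rested on values under the floor. Its lowest uterus value was 2.43 CPM (2 counts, mouse 4) and its highest endometrium value 1.81 CPM (1 count, mouse 9). Without KO mouse 13 the same 3 genes passed, and Upk3b was 68.9-fold lower (-6.11 ± 0.65 log2, edgeR adjusted p = 2.32e-06). Upk1b narrowly missed the threshold (-2.18 ± 0.56, edgeR adjusted p = 0.0566) and passed with the mouse as a block (-2.27, edgeR adjusted p = 0.0199). Wt1 was the exception again, at 1.15 ± 0.43 in endometrium over uterus (edgeR adjusted p = 0.209), although it was higher in endometrium in 7 of 7 KO mice.

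**Figure D2:**
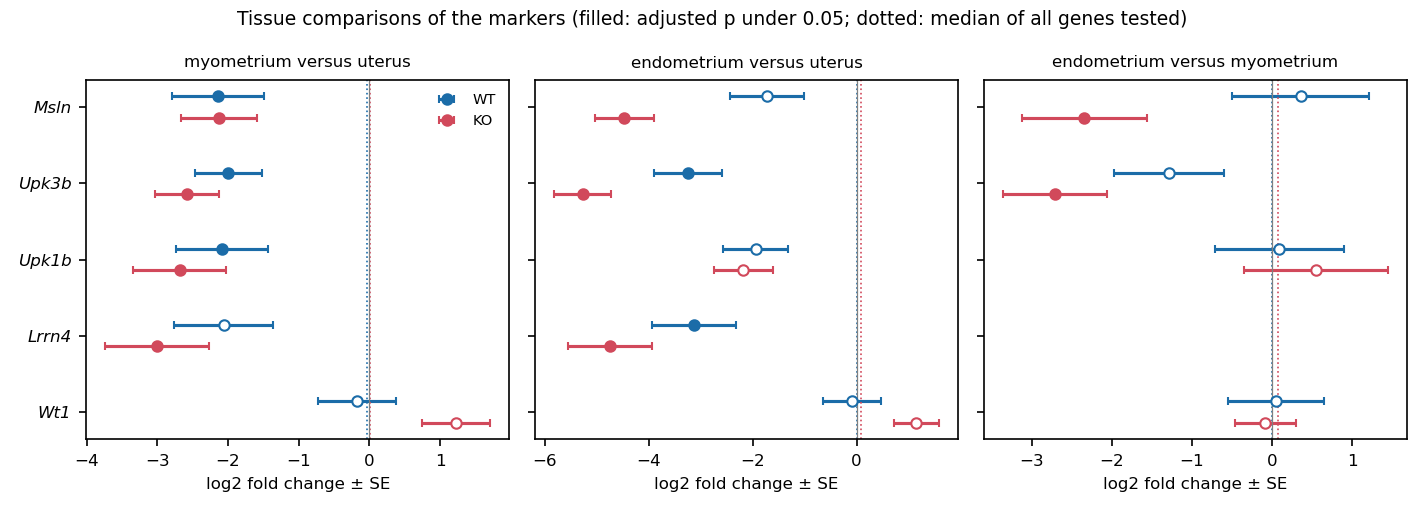
Log2 fold change ± SE of each marker in the 3 tissue comparisons (blue WT, red KO, 7 mice per group). Filled symbols passed an adjusted p of 0.05 in edgeR, and dotted lines mark the median of all genes tested. Against uterus the values of 4 genes lie between -5.27 and -1.72, and Wt1 lies near or above 0. The endometrium values of Lrrn4 rest on 3 WT and 2 KO counts, and Lrrn4 is not drawn against myometrium, where no sample exceeded 2 counts.

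The third comparison, endometrium against myometrium, is the contrast of the separated layers. In WT mice 0 of 5 markers passed with edgeR or DESeq2 (background 6.4% lower and 6.79% higher of 13227 genes tested), and 0 had an unadjusted p under 0.05 in edgeR (background 24.8%). Upk3b had a log2 fold change of -1.28 ± 0.69 (edgeR adjusted p = 0.253), which reached -1.72 with the mouse as a block (edgeR adjusted p = 0.00636). Without mouse 8 it was -1.43 (edgeR adjusted p = 0.250), and without mouse 3 it was -1.21 (edgeR adjusted p = 0.284), with 0 markers passing in either case. In KO mice 2 of 5 markers were lower in endometrium (background 8.71% lower and 10.6% higher of 12969 genes tested). Upk3b was 6.55-fold lower (-2.71 ± 0.65 log2, edgeR adjusted p = 0.00431) and Msln 5.08-fold lower (-2.35 ± 0.78, edgeR adjusted p = 0.0352). Msln missed the threshold without KO mouse 2, 6, 9, 13 or 14 (edgeR adjusted p = 0.0778, 0.0775, 0.0677, 0.0607 and 0.151). Without mouse 13, whose endometrium held the highest KO value of Upk3b, that gene was 13.1-fold lower (-3.71 ± 0.71 log2, edgeR adjusted p = 0.000471). Upk1b and Wt1 differed between the layers by less than their standard errors in both genotypes, and Lrrn4 was at or under the floor in all 28 layer samples.

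Within single mice the pattern was largely the same. Uterus was above myometrium in 11 of 14 mice for Msln, in 12 for Upk3b and Lrrn4, and in 13 for Upk1b. Uterus was above endometrium in 13 of 14 mice for each of the 4 genes. For Wt1 these counts were 6 and 5 of 14. In KO mice the only exception among the 4 genes was Msln in mouse 14, whose myometrium held 17.2 CPM against 14.5 in its uterus.

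**Figure D3:**
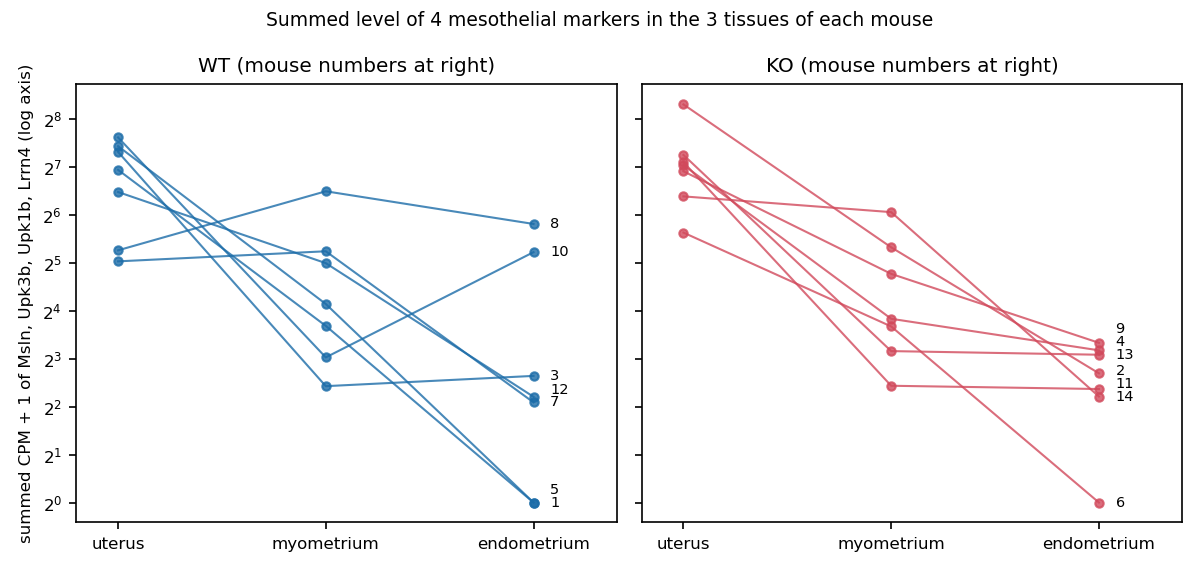
Summed level of Msln, Upk3b, Upk1b and Lrrn4 (CPM + 1, log axis) in the 3 tissues of each mouse, joined by a line, in WT (left) and KO (right). Lines fall from uterus to myometrium in 12 of 14 mice, WT mice 7 and 8 being the exceptions, and the WT endometrium samples of mice 8 and 10 lie above the other 5.

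Mice 7 and 8 accounted for the other exceptions, both WT. In mouse 8 the uterus was the lowest of the 3 tissues: the summed level of the 4 genes was 37.2 CPM in uterus, 88.6 in myometrium and 54.9 in endometrium. Mouse 7 had 31.6 CPM in uterus, the lowest sum of the 14 uteri, and 36.7 in myometrium. In the other direction, mouse 10 had 194.2 CPM in uterus and 7.14 in myometrium, but 36.2 in endometrium. The sum is weighted to Upk3b, which supplied most of the counts. Its group means for WT and KO mice were 114 ± 64.5 CPM (SD, n = 7) and 139.8 ± 84.2 in uterus, 28.0 ± 29.3 and 24.0 ± 21.8 in myometrium, and 14.7 ± 21.8 and 5.39 ± 3.11 in endometrium.

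Markers of other cells differed between these samples. Mouse 8 endometrium had the highest summed oviduct list of the WT endometrium samples (5133 CPM over 4 genes, against 7.49 to 103 CPM in the other mice) and the highest sum of the uroplakins Upk1a, Upk2 and Upk3a (38.3 CPM). In mouse 10, which held the next highest marker sum, these uroplakins came second (8.45 CPM), the leukocyte list was highest (112.2 CPM, against 60.1 to 107 CPM), and the oviduct list was at 74.8 CPM. Adipocyte and smooth muscle genes did not follow the markers in endometrium: both were highest in mouse 3 (65.3 and 13894 CPM), which held 1.31 CPM of Msln and no Upk3b, against 29.4 and 1913 CPM in mouse 8 and 4.83 and 1035 CPM in mouse 10. In myometrium the adipocyte genes went with the markers in mouse 8, which had the highest marker sum of the 14 samples. That sample also had the highest adipocyte sum (191.1 CPM, against 25.4 to 113.5 CPM). It was the only myometrium with Adipoq, the fat hormone adiponectin (9.85 CPM). Its smooth muscle sum was 22966 CPM, inside the range of 16200 to 42103 CPM in WT myometrium. The part of these markers in the result was not tested.

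The labels give each library a position code that starts with a letter, A to F. Apart from 3 repeat libraries, uterus had letters A and D, myometrium B and E, and endometrium C and F, so letter and tissue cannot be told apart. The difference between uterus and layers was present in both sets of letters. Letters A to C held the samples of 8 mice, 5 of them WT, and letters D to F those of 6, 2 of them WT. In both sets and both genotypes the mean difference of log2(CPM + 1) between uterus and either layer was above 0 for each of the 4 genes. For Upk3b it was 1.84 to 2.79 against myometrium and 3.16 to 6.01 against endometrium.

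Genotype was compared in each tissue. With edgeR 0 of 5 markers, and 0% of all genes tested, differed between KO and WT in the uterus, the endometrium (where 4 markers passed the filter on low counts) or the myometrium. At an unadjusted p under 0.05 there were 732, 676 and 547 genes (5.65%, 5.2% and 4.21%), and DESeq2 called 0, 1 and 0 genes. In uterus the log2 fold changes of KO over WT were 0.25 (95% interval -0.66 to 1.17) for Msln, 0.25 (-0.56 to 1.06) for Upk3b, 0.43 (-0.43 to 1.29) for Upk1b, 0.76 (-0.39 to 1.92) for Lrrn4 and -1.0 (-2.02 to 0.01) for Wt1. Without WT mouse 8 no marker passed in any of the 3 tissues either, nor without WT mouse 3 or KO mouse 13, and in the fit without mouse 8 Upk3b in myometrium changed sign, to 0.26 ± 0.50 (edgeR adjusted p = 1.0).

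In endometrium Msln had the lowest value, at -2.44 ± 0.95 log2 (unadjusted p = 0.0168, edgeR adjusted p = 0.907), followed by Upk3b at -1.79 ± 0.89 (edgeR adjusted p = 0.957). WT mice 8 and 10 held the only WT endometrium samples over 3 CPM for either gene, and Msln lay between -2.77 and -1.37 when 1 mouse was left out. In myometrium the values were 0.26 ± 0.74 for Msln, -0.35 ± 0.51 for Upk3b, -0.20 ± 0.93 for Upk1b and 0.41 ± 0.51 for Wt1. Whether the loss from uterus to layer differed between genotypes was tested as an interaction. It was called for 0 of 5 markers in each pair of tissues and for 0% of genes with edgeR (659 genes of 14314, 4.6%, had an unadjusted p under 0.05 for the separated layers). Msln was among these (unadjusted p = 0.0432 by edgeR). Between endometrium and uterus Msln and Upk3b had an unadjusted p under 0.05 (0.0139 and 0.0437 by edgeR), as did 642 of 14194 genes. Between uterus and myometrium no marker did, against 585 of 14243 genes. The largest marker values were -2.68 ± 1.28 for Msln between the separated layers and -2.71 ± 1.05 for Msln between endometrium and uterus (edgeR adjusted p = 0.995 and 1.00).

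The markers were then compared with each other across the 14 mice. Only pairs with at least 3 counts in at least 7 samples were used, which gave 10 pairs in uterus, 3 in myometrium and none in endometrium, adjusted over the 13. In uterus 4 pairs passed a permutation test of r, which gave the adjusted p shown: Upk3b with Lrrn4 (r = 0.73, rho = 0.64, adjusted p = 0.0145), Upk3b with Upk1b (r = 0.70, rho = 0.52, adjusted p = 0.0145), Msln with Upk1b (r = 0.68, rho = 0.76, adjusted p = 0.0145) and Msln with Lrrn4 (r = 0.67, rho = 0.63, adjusted p = 0.0210). Wt1 was not among them: its 4 coefficients lay between -0.35 and -0.16 (permutation tests, adjusted p = 0.340 to 0.575). In a permutation test of rho only Msln with Upk1b passed (adjusted p = 0.0348). That test gave an adjusted p of 0.0598 for Upk3b with Lrrn4 and for Msln with Lrrn4, and 0.130 for Upk3b with Upk1b. In myometrium Msln and Upk3b had r = 0.60 (permutation test, adjusted p = 0.0681).

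**Figure D4:**
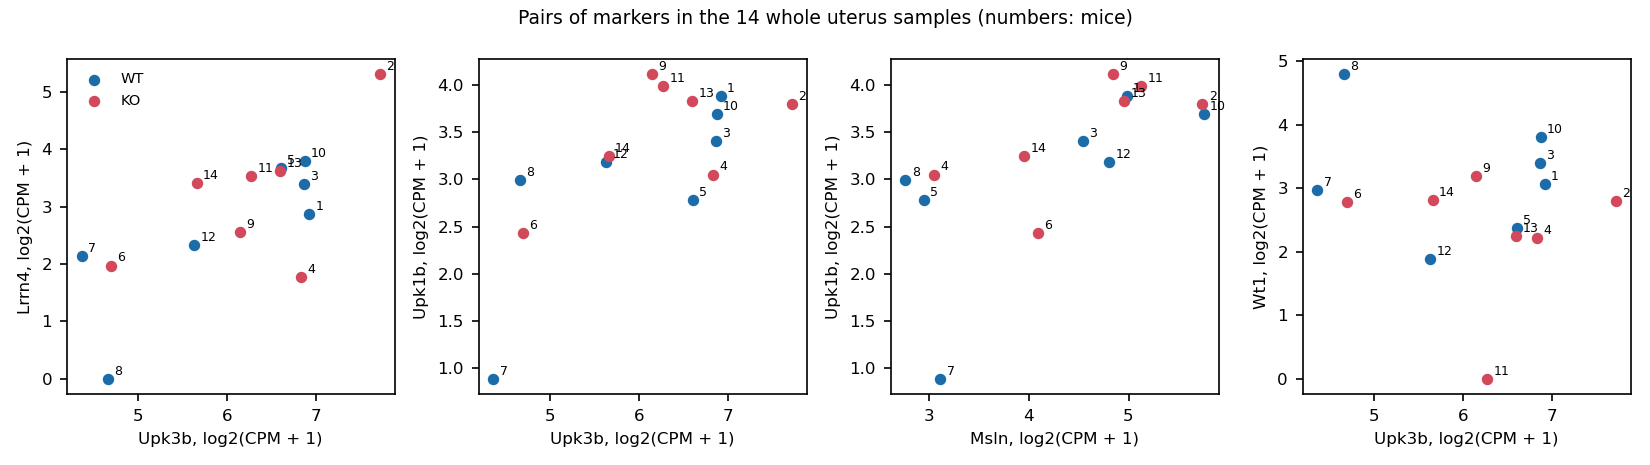
Levels of 4 marker pairs in the 14 intact uteri, log2(CPM + 1), with 1 point per mouse (blue WT, red KO) and its number. The first 3 pairs rise together (r = 0.73, 0.70 and 0.68) with WT mice 7 and 8 at the low end, and Wt1 against Upk3b shows no rise (r = -0.19).

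The 2 pairs with Upk3b rested in part on those mice. After leaving out the 2 samples farthest from the median of the first gene, r was 0.63 for Upk3b with Lrrn4, 0.53 for Upk3b with Upk1b (both without mice 7 and 8), 0.74 for Msln with Upk1b and 0.74 for Msln with Lrrn4 (both without mice 5 and 8), and only the last 2 pairs still passed. Within letters A to C these coefficients were 0.74, 0.78, 0.60 and 0.71 and within letters D to F they were 0.66, 0.61, 0.46 and 0.30, with none passing in so few mice.

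A wider list of 16 genes used for mesothelium did not behave as 1 group. Against uterus, myometrium was lower for 7 and higher for 1 of 15 tested genes in WT (background 6.63% and 5.38%; median log2 -0.92, against -0.04 over all genes), and lower for 6 and higher for 1 of 14 in KO (background 8.04% and 6.08%; -1.17 against 0.01). Endometrium was lower than uterus for 3 of 14 genes in WT (background 1.05%; -0.45 against 0.01) and for 7 of 14 in KO (background 0.934%; -1.51 against 0.08), and higher for none (background 0.565% and 0.324%). Without WT mouse 8 the list had 5 lower and 0 higher of 15 in WT myometrium (background 4.12% and 3.56%) and 2 lower of 14 in WT endometrium (background 0.57%), and without KO mouse 13 it had 4 lower of 14 in KO myometrium (background 5.49%) and 7 of 14 in KO endometrium (background 2.09%). Nkain4 and Cldn15, named after their values were seen, had the pattern of the 4 markers. Nkain4, which interacts with the sodium pump, averaged 18.0 ± 13.3 CPM (SD, n = 7) in WT uterus, 5.27 ± 5.27 in myometrium and 2.55 ± 1.87 in endometrium, and 19.9 ± 15.1, 1.68 ± 1.57 and 0.566 ± 0.707 in KO. It passed in all 4 comparisons with uterus (edgeR adjusted p = 0.0419, 0.0175, 0.000492 and 0.00182), also without WT mouse 8 and KO mouse 13. Cldn15, a tight junction claudin, passed in 3 of the 4 and missed in WT endometrium (edgeR adjusted p = 0.0770). It passed in none of the 4 without those mice (edgeR adjusted p = 0.0804 to 0.133).

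**Figure D5:**
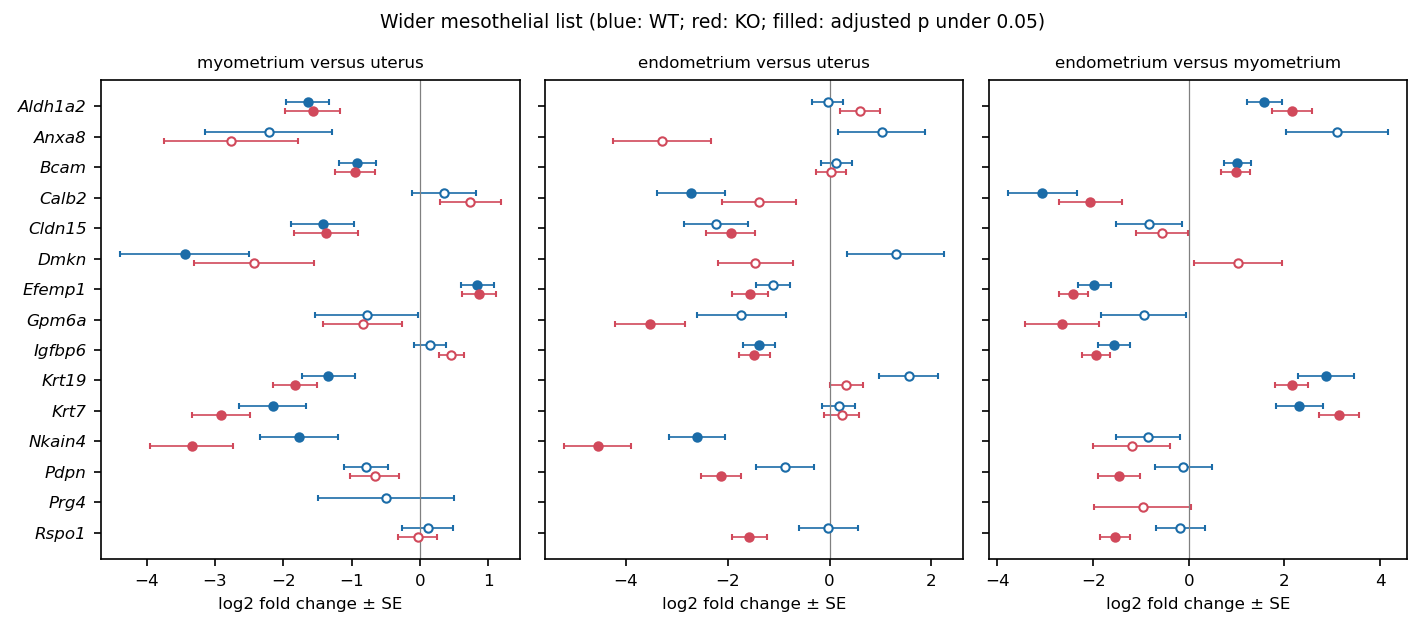
Log2 fold change ± SE of 15 genes of the wider mesothelial list in the 3 tissue comparisons (blue WT, red KO, filled where the edgeR adjusted p was under 0.05, absent where a gene failed the filter on low counts). Nkain4 and Cldn15 lie under 0 in both comparisons with uterus, and the keratins Krt7 and Krt19 are low in myometrium alone.

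The remaining genes of the list divided by layer. Between endometrium and myometrium 4 were higher and 3 lower of 13 tested in WT (background 6.79% and 6.4%), and 4 higher and 6 lower of 14 in KO (background 10.6% and 8.71%). The keratins Krt19 (2.87 ± 0.59 in WT and 2.15 ± 0.35 in KO) and Krt7 (2.31 ± 0.49 and 3.14 ± 0.42), which epithelium shares, and Aldh1a2 (1.58 ± 0.36 and 2.15 ± 0.42), a retinoic acid synthesis enzyme, were higher in endometrium. Efemp1 (-1.98 ± 0.34 and -2.41 ± 0.31), a matrix glycoprotein, Igfbp6 (-1.56 ± 0.33 and -1.94 ± 0.30), a binding protein of insulin-like growth factors, and Calb2 (-3.06 ± 0.73 and -2.06 ± 0.66), the calcium-binding calretinin, were lower. All 6 passed in both genotypes with edgeR (adjusted p = 0.00135, 0.00179, 0.00383, 0.000218, 0.00174 and 0.00478 in WT). All 6 also passed without WT mouse 8 and without KO mouse 13, where Calb2 was at -5.26 ± 0.73 in KO, 33 of its 34 KO endometrium counts being those of mouse 13. Against uterus, Calb2 had log2 fold changes in myometrium of 0.35 ± 0.47 in WT and 0.74 ± 0.44 in KO that did not pass (edgeR adjusted p = 0.683 and 0.280), and it was lower in WT endometrium (-2.72 ± 0.67, edgeR adjusted p = 0.0361; 0.0591 without mouse 8).

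Lists for other cells described the tissues. Epithelial genes were higher in endometrium than in myometrium for 6 of 7 tested in WT and 7 of 7 in KO (background 6.79% and 10.6%), and lower in myometrium than in uterus for the same numbers (background 6.63% and 8.04%). Smooth muscle genes were lower in endometrium than in myometrium for 8 of 8 in both genotypes, and fibroblast and stroma genes for 5 of 8 (background 6.4% in WT and 8.71% in KO), in both lists also without WT mouse 8 or KO mouse 13. Between endometrium and uterus in KO the smooth muscle list had 0 of 8 lower with mouse 13 (background 0.934%) and 8 of 8 without it (background 2.09%). Endothelial genes passed in none of the 6 tissue comparisons (5 tested), and leukocyte genes in at most 1 of 5 in any of them (background 0.324% to 10.6% per direction). Of the other uroplakins only Upk1a had enough counts to be tested. It was higher in WT endometrium than in WT myometrium (4.28 ± 1.14 log2, edgeR adjusted p = 0.0114), with 29 of its 39 WT endometrium counts in mouse 8, and it had too few counts to be tested without that mouse. In KO endometrium the tested uroplakin did not pass against uterus or myometrium (log2 fold changes 3.26 and 1.22). Without KO mouse 13 it passed as higher than in uterus (background 0.213%) and still did not pass against myometrium. The 3 genes summed to 0 to 9.77 CPM in uterus and myometrium, and to 0.911 to 16.3 CPM (median 6.68) in KO endometrium. Of the adipocyte list only Fabp4 had enough counts to be tested, and Adipoq, Plin1, Cidec and Lep were at 0 in all KO groups. In WT, Adipoq gave 13 counts in the uterus of mouse 1, 5 in the myometrium of mouse 8, and 7 and 3 in the endometrium of mice 3 and 8, and Cidec, a lipid droplet protein, was found in the same 4 samples and in the myometrium of mouse 12. The ovary list had Cyp19a1, Fshr and Amh at 0 in all 6 groups, and its only tested gene, Star, was lower in endometrium than in myometrium in both genotypes. The oviduct list had a median sum of 74.8 CPM in WT and 83.0 in KO endometrium, and Ovgp1 was its only gene to pass in any tissue comparison. Without mouse 8, Ovgp1 passed in WT between endometrium and myometrium alone (2.92 ± 0.54 log2, edgeR adjusted p = 0.000881).

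Genes most like the markers were ranked by their correlation with the mean log2(CPM + 1) of the 5 measured members, among 6630 genes at a mean of 10 CPM or more. Over the 42 samples, which share tissue and genotype groups, the nearest were C2 (r = 0.76), a complement component, Gngt2 (0.71), a G protein subunit, Cd209f (0.70), a lectin, Slpi (0.70), a protease inhibitor, and Dnajc19 (0.68), a mitochondrial co-chaperone. After the mean of each of the 6 groups was subtracted the nearest were Slpi (0.62), Tead1 (0.58), C2 (0.57), Abhd11os (0.57) and Dcpp1 (0.55). Over the 42 samples Tead1 did not follow the markers (r = 0.031). Unlike theirs, its mean was lower in uterus than in myometrium. It was 7.57 ± 3.41 against 24.6 ± 17.8 CPM in WT and 10.9 ± 7.34 against 30.7 ± 11.8 CPM in KO. Slpi averaged 62.3 ± 47.6 CPM in WT uterus and 13.5 ± 17.8 in WT myometrium. Dcpp1 reached 697 CPM in 1 WT endometrium sample and was at most 7.88 CPM in the other 5 groups, so its coefficient rests on that sample, which is that of mouse 8. Abhd11os was also highest there (62.6 CPM, against a median of 6.53 in WT endometrium). Without mouse 8 (39 samples) the coefficients after subtraction were 0.53 for Slpi, 0.56 for Tead1, 0.50 for C2, 0.40 for Abhd11os and 0.27 for Dcpp1. These coefficients are descriptions and carry no test.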

How the data were processed

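Uterus, endometrium and myometrium of 7 WT and 7 KO mice were profiled by STRT RNA-seq. The authors deposited raw counts per gene symbol, without scaling or gene filter. Per the methods of the study, the authors merged reads by molecular identifier, aligned them with TopHat to mm9 and counted over UCSC gene models with Homer, whereas the submitters' processing notes name HTSeq. The use of strand and the treatment of reads with several positions are not given in the sources used here. Counts at the floor limit what can be seen of low genes.

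Counts of repeat libraries of a mouse were summed. Each comparison was fitted on its own groups, without covariates, over genes that reached 1 CPM in 5 or more samples. TMM factors and the quasi-likelihood F test of edgeR 4.0.16 (R 4.3.3) were used, with Benjamini-Hochberg adjustment over all genes tested and a threshold of 0.05. CPM values used TMM factors over all 42 samples. Relations between markers used log2(CPM + 1) and two-sided permutation tests (100000 resamples) in Python 3.11.15 with scipy 1.17.1. Ratios of low counts carry exact binomial intervals.

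The 3 tissues of a mouse come from the same animal by the mouse number in the labels. Deviations from group means (6630 genes) correlated with a median r of 0.12 to 0.20 between tissues of 1 mouse and of -0.03 to -0.02 between mice. Labels do not say whether mice shared litters or cages.

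The members and the gene lists (wider mesothelial, other uroplakins, epithelium, smooth muscle, fibroblast and stroma, endothelium, adipocyte, ovary, oviduct, leukocyte) were chosen with earlier results of these data known. By rule, all members were named, with up to 6 genes of the wider list that passed between endometrium and myometrium in both genotypes, by smallest p in WT, and the 5 genes most like the members on each scale, whose mean was taken over 5 members because Muc16 has no row. Alternatives were relative log expression factors, DESeq2 1.42.0, no gene filter, spike-in scaling, 1 library per mouse, all 6 groups in a single fit, position letters (A to C or D to F) as a covariate, each mouse left out (98 fits) and the mouse as a block. Interactions that include the intact uterus, and likeness without WT mouse 8, were added after the data were seen.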

Additional observations from a re-analysis of the deposited data

Results flagged for a closer look

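In each of the 30 groups of 7 mice (5 genes in 6 groups) the highest and the lowest sample were set against the rest by Dixon's rule, which chance flags in about 1 of 20 groups (5%), and 4 values stood out. Upk1b was lowest in the uterus of WT mouse 7, at 0.89 on the log2(CPM + 1) scale or 0.853 CPM, which was 1 count. The same mouse had the lowest summed level of the 4 uterus-enriched markers. Lrrn4 was highest in the endometrium of KO mouse 9, at 1.49 or 1.81 CPM, also 1 count. Wt1 was at 0 in the uterus of KO mouse 11 (0.0 on the log2 scale), where Msln, Upk3b, Upk1b and Lrrn4 were all present. Wt1 was also at 0 in the myometrium of KO mouse 9 (0.0 on the log2 scale), against 9.77 to 15.6 CPM in the other 6 KO mice. The floor of that sample, the myometrium with the fewest counts, was 9.82 CPM. All 4 values are at or under the floor of 3 counts.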

How the results depend on the processing

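The 14 calls for single markers in the tissue comparisons all kept their direction under the alternatives run. With relative log expression factors, DESeq2, no gene filter, position letters as a covariate or the mouse as a replicate block all 14 stayed past the threshold, with 1 library per mouse 12 did, with all 6 groups in a single fit 13 did and with spike-in scaling 13 did. Of 98 values with 1 mouse left out 75 stayed past it. With 1 library per mouse Upk1b between myometrium and uterus in WT was lost (adjusted p = 0.0622), and Msln between endometrium and myometrium in KO was lost in that fit, with spike-in scaling and with all 6 groups in a single fit (adjusted p = 0.0531, 0.0903 and 0.0898), which left 1 marker there in each case. Newly called were Lrrn4 between myometrium and uterus in WT with DESeq2 and spike-in scaling (adjusted p = 0.0490 and 0.00328), Upk1b between endometrium and uterus in WT with spike-in scaling (0.0303), and the same gene in KO with relative log expression factors, DESeq2 and all 6 groups (0.0496, 0.00569 and 0.0474). Against WT uterus, spike-in scaling called 4434 of 13104 genes lower in myometrium and 504 of 13091 lower in endometrium.

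The mouse as a replicate block raised the count of markers between endometrium and myometrium in WT from 0 to 1 (Upk3b). It gave 665 and 472 genes between endometrium and uterus in WT and KO, against 211 and 163 without it, and 10 genes, none of them a marker, in the genotype by layer interaction. With the block the log2 fold changes between endometrium and myometrium in WT turned to -0.12 for Msln, -0.020 for Upk1b and -0.12 for Wt1, and the interaction for Wt1 to 0.011. Beside these and the calls given with the comparisons it changed no other call for a marker.

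Spike-in scaling moved the median over all genes, on the log2 scale, to -0.75 (WT) and -0.42 (KO) between myometrium and uterus, to -0.53 and 0.14 between endometrium and uterus, to 0.21 and 0.58 between endometrium and myometrium, and to -0.37 and 0.27 between KO and WT in uterus and endometrium, and 0.35 in the interaction. It called 4567 genes between myometrium and uterus in WT, of which 2.91% were higher against 44.8% otherwise, and 518 and 20 between endometrium and uterus in WT and KO. Wt1 turned to 0.41 between endometrium and myometrium in KO and to 0.033 in the interaction, and Upk3b to -0.046 between KO and WT in uterus, all relative to those shifts. Between endometrium and uterus DESeq2 called 474 and 431 genes and all 6 groups in a single fit 438 and 346. Between KO and WT 1 gene was called in endometrium with DESeq2, 7 with all 6 groups, and in myometrium 3 without a gene filter and 1 with spike-in scaling, none of them a marker. With position letters as a covariate Upk1b and Wt1 turned to -0.0079 and -0.024 between endometrium and myometrium in WT, and with 1 library per mouse Upk1b to -0.052. Of the 4 marker relations that passed for r, 0 passed within letters A to C, 0 within letters D to F and 2 without the 2 farthest samples, again for r. The cause was not tested.

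Leaving out 1 mouse at a time gave 0 to 2 markers between endometrium and uterus in WT, 1 to 4 between myometrium and uterus in WT and 1 to 2 between endometrium and myometrium in KO. The number of genes called ran from 59 (without mouse 10) to 221 between endometrium and uterus in WT, being 77, 84, 81, 102 and 138 without mice 1, 5, 7, 8 and 12. It ran from 16 (without mouse 2) to 291 (without mouse 13) in KO, being 45, 65, 50 and 56 without mice 4, 6, 9 and 11. Between myometrium and uterus it ran from 837 (without mouse 12; 914 and 978 without mice 7 and 8) to 1851 in WT and from 1093 (without mouse 4; 1125 and 1138 without mice 6 and 13) to 2161 in KO, and between endometrium and myometrium in WT from 1156 (without mouse 10) to 1827. Between KO and WT it was 0 or 1 in uterus and in myometrium. Log2 fold changes without a call crossed 0: between endometrium and myometrium in WT Msln (-0.21 to 0.90), Upk1b (-0.35 to 0.63) and Wt1 (-0.47 to 0.44), Wt1 between endometrium and uterus (-0.44 to 0.20) and between myometrium and uterus in WT (-0.65 to 0.37), between KO and WT in uterus Msln (-0.043 to 0.66), Upk3b (-0.10 to 0.42) and Lrrn4 (-0.029 to 0.99), in endometrium Upk1b (-0.061 to 0.53), in myometrium Msln (-0.29 to 0.84), Upk3b (-0.80 to 0.26) and Upk1b (-1.24 to 0.61), and in the interaction Upk1b (-0.062 to 1.22) and Wt1 (-0.51 to 0.41).

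Depth limits the layers most: 3 counts were up to 9.82 CPM in myometrium and 9.10 CPM in endometrium. Msln was under 3 counts in 7 of 14 myometrium and 11 of 14 endometrium samples, and Lrrn4 in all 28.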
